A study of Gallus gallus with 2 samples.

Results

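Among genes of the Wnt pathway, 8 feedback inhibitors and target genes were examined in chick limb bud: AXIN2, NKD1, NOTUM, ZNRF3, RNF43, LGR5, LEF-1 and SP5. They were chosen by name, with earlier results of these data known, as rows of the expression tables whose symbol equals a listed name, letter case ignored. All 8 were found, each at 1 annotated locus, out of 16736 genes left after rows of the same symbol were summed, and 7 of the 8 reached an FPKM of 1 (fragments per kilobase of transcript, scaled to library size) in at least 1 library, SP5 being the exception. The comparison of the treatments was part of that choice, so the differences below are given as a description.

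The study sequenced RNA from limb buds of chick embryos at Hamburger-Hamilton stage 22 (day 4), whose pieces had been kept for 4 h at 37 °C either with vehicle, 5% DMSO, or with 40 µg/ml thalidomide, the drug known for the limb defects it caused in newborns, whose main protein target is cereblon. There was 1 library per treatment. The labels state neither how many embryos were pooled, nor whether fore- and hindlimb buds were mixed, nor whether the thalidomide pieces also received DMSO. With no replicates there is no test between treatments: every value describes these libraries, and the deposited confidence limits cover counting and read assignment within a library only. In bulk tissue, fewer cells of a type and less RNA per cell cannot be told apart.

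Wnt ligands bind Frizzled receptors and LRP coreceptors, which stops a cytoplasmic destruction complex from removing β-catenin; β-catenin then enters the nucleus and, on TCF and LEF factors, switches genes on. Several of the genes it switches on dampen the signal again, at the level of the ligand, the receptor or the destruction complex, and for this reason they are widely used as readouts of the pathway. In the limb bud, Wnt signals from ectoderm and mesenchyme help to form the apical ridge, keep the mesenchyme growing and hold back cartilage.

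The libraries were of like depth, with 23342008 fragments inferred from the confidence limits with vehicle and 23260862 with thalidomide, totals that may be too low because uncertain assignment also widens the limits. The FPKM values summed to 426632 and 384280, and mitochondrially encoded RNA took 8.94% and 11.3% of these sums. Of the limb mesenchyme markers, 9 of 9 genes measured passed the filter, led by PRRX1 at 217 and 185 FPKM and MSX1 at 177 and 129 FPKM. Markers of other cell types were present as well: summed over each list, ectoderm and ridge markers had 175 FPKM with vehicle and 141 with thalidomide (KRT19, a keratin, 56.8 and 46.1; KRT8, another keratin, 33.2 and 27.1), endothelial markers 66.6 and 56.5 (ERG 29.3 and 25.6; CDH5 13.9 and 10.6), and blood markers 482 and 635 (the globins HBG1, 215 and 273, and HBAA, 137 and 193). Muscle precursor markers summed to 62.1 and 54.4 FPKM (MYOD1 20.2 and 17.1; MEOX2 17.0 and 13.8) and neural markers to 95.05 and 82.8 (TUBB3 71.5 and 58.6; ELAVL4 8.20 and 6.37). Macrophage markers were low, at 2.55 and 2.47 FPKM in all (CSF1R 1.13 and 0.771; PTPRC 0.719 and 1.07). Of the whole lists, blood had 6 of 6 genes past the filter above a log2 ratio of 0. Below 0 were 7 of 10 ectoderm and 7 of 9 mesenchyme genes, beside 59.0% of all genes. Endothelium had 5 of 6 and muscle precursors 5 of 7 below 0. Macrophages had 1 of 2 below 0, but CSF1R and PTPRC each passed the filter through 1 library alone, which fixed their signs. Neural genes had 3 of 7 below 0, TUBB3 and ELAVL4 among them, and 4 above it. Only HBZ was at 0 in both libraries. What part any difference in tissue makeup has in the values below was not tested.

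The 8 genes spanned a wide range of levels. LGR5 and LEF-1 were the most abundant and together made up 63.3% of the summed FPKM of the 8 genes with vehicle and 51.8% with thalidomide. The order was the same in both libraries, from LGR5 through LEF-1, NKD1, AXIN2, ZNRF3, NOTUM and RNF43 to SP5. Every neighbouring pair in that order was separated by its deposited intervals, except RNF43 and SP5 with vehicle. The highest level, of LGR5, was 30.9 times the lowest, of SP5, with vehicle and 20.9 times with thalidomide, a log2 difference of −0.56 ± 0.45 that is within 2 errors of 0.

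**Figure D1:**
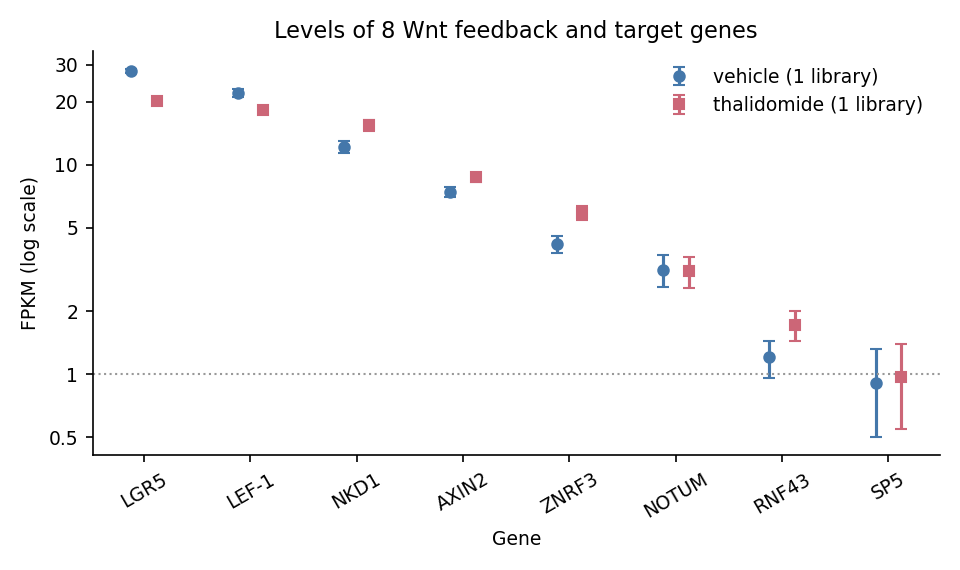
FPKM (log axis) of the 8 genes in the vehicle library (circles) and the thalidomide library (squares), with the deposited confidence limits as bars and a dotted line at 1 FPKM. LGR5 and LEF-1 lie lower with thalidomide, NKD1, AXIN2 and ZNRF3 lie higher, and the bars of NOTUM, RNF43 and SP5 overlap.

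The comparison asks whether the pathway's own readouts differ between tissue kept with thalidomide and with vehicle. They did not move as a block. The ubiquitin ligase gene ZNRF3 and the cytoplasmic inhibitors NKD1 and AXIN2 were higher in the thalidomide library, LGR5 and LEF-1 were lower, and RNF43, NOTUM and SP5 had overlapping intervals. Of the 7 genes past the filter, 3 were therefore higher with separate intervals, where 15.5% of all 10905 genes past the filter were, and 2 were lower, where 26.9% were. With both libraries rescaled to the mean of their FPKM totals, these shares of all genes became 32.1% higher and 10.4% lower. LEF-1 then had overlapping intervals and RNF43 separate ones, while LGR5 was still lower. This rescaling raised every ratio, so ZNRF3, NKD1 and AXIN2 could only stay higher. Log2 ratios below are of thalidomide over vehicle after 1 was added to each FPKM, which understates the ratio of low genes, and the ± is an error propagated from the deposited limits.

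ZNRF3 and RNF43 encode related membrane-bound ubiquitin ligases that remove Frizzled receptors from the cell surface. ZNRF3 (ENSGALG00000005803; galGal4 chr15:7788957-7795744) had 4.17 FPKM with vehicle (limits 3.78 to 4.56) and 5.91 with thalidomide (limits 5.46 to 6.36), from about 452 and 683 fragments. It was the highest ratio of the 8, at 0.42 ± 0.07, which is 1.34-fold on the FPKM + 1 scale, and 97.0% of genes past the filter had a lower ratio. RNF43 (ENSGALG00000001028; chr19:516190-561565) was much scarcer, at 1.20 FPKM with vehicle (limits 0.962 to 1.44) and 1.72 with thalidomide (limits 1.439 to 2.01), from about 100 and 146 fragments. Its intervals met at their edges, since the upper vehicle limit of 1.443 lay just above the lower thalidomide limit. Without the added 1, the FPKM of RNF43 was 1.43 times as high with thalidomide and that of ZNRF3 1.42 times, while with the added 1 the log2 ratio of RNF43 was 0.31 ± 0.11. ZNRF3 made up 77.6% ± 1.9 of the pair's summed FPKM with vehicle and 77.4% ± 1.6 with thalidomide (± is the propagated error), so the balance between the ligases differed by less than its error.

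AXIN2 and NKD1 act inside the cell. AXIN2 is a scaffold of the destruction complex and perhaps the most widely used target gene of the pathway; NKD1 (naked cuticle homologue) binds Dishevelled, the relay protein below the receptor. AXIN2 (ENSGALG00000004021; chr18:7895218-7917904) had 7.42 FPKM with vehicle (limits 7.001 to 7.83) and 8.70 with thalidomide (limits 8.27 to 9.13), from about 1280 and 1619 fragments, a log2 ratio of 0.21 ± 0.05. NKD1 (ENSGALG00000003767; chr11:5725577-5829415) had 12.2 FPKM with vehicle (limits 11.4 to 13.02) and 15.4 with thalidomide (limits 14.6 to 16.3), from about 881 and 1222 fragments, a log2 ratio of 0.32 ± 0.06. Both were higher with thalidomide and the intervals did not overlap. NKD1 stayed more abundant than AXIN2, at 1.64 times its FPKM with vehicle and 1.77 times with thalidomide.

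AXIN1, the related scaffold that is not known as a feedback target, had 15.7 FPKM with vehicle and 15.0 with thalidomide (−0.06 ± 0.06), with overlapping intervals. It is annotated at 2 nested loci whose values were summed, so its level is less certain than that of AXIN2. AXIN2 made up 32.1% ± 0.96 of the summed FPKM of both axins with vehicle and 36.8% ± 0.98 with thalidomide. The AXIN2 share was thus 4.63 ± 1.4 percentage points higher in the thalidomide library, a difference that no scaling between the libraries changes.

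NOTUM encodes a secreted enzyme that inactivates Wnt ligands by removing their lipid. NOTUM (ENSGALG00000002900; chr18:5023602-5028361) had 3.15 FPKM with vehicle (limits 2.61 to 3.69) and 3.10 with thalidomide (limits 2.58 to 3.62), from about 137 and 142 fragments. The log2 ratio was −0.02 ± 0.13, so a difference was not detectable with this many fragments. It is the member of the 8 whose sign depended on the scaling, from −0.02 as deposited to 0.13 after rescaling without mitochondrial genes and short loci.

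LGR5 encodes a receptor for R-spondins, secreted proteins that take ZNRF3 and RNF43 off the cell surface and so strengthen the Wnt signal; it is best known as a marker of intestinal stem cells. LGR5 (ENSGALG00000010163; chr1:36192580-36280194) had 28.01 FPKM with vehicle (limits 27.4 to 28.6) and 20.2 with thalidomide (limits 19.7 to 20.7). With about 8123 and 6624 fragments it is the best measured of the 8, its limits lying 2.22% and 2.46% from the value. It had the lowest ratio of the 8, −0.45 ± 0.02, or 1.37-fold lower on the FPKM + 1 scale, and 2.66% of genes past the filter had a lower ratio.

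Its relatives did not share that difference in size. LGR4, the other main R-spondin receptor, had 12.5 FPKM with vehicle and 13.2 with thalidomide (0.07 ± 0.03), with overlapping intervals as deposited. After either rescaling LGR4 was higher with separate intervals, beside 32.1% and 37.2% of all genes. LGR6 stayed under 1 FPKM, at 0.357 and 0.549. LGR5 made up 68.6% ± 0.42 of the summed FPKM of the LGR genes with vehicle and 59.5% ± 0.46 with thalidomide. LGR4 made up 30.5% ± 0.41 and 38.9% ± 0.45. LGR5 was the most abundant of these receptor genes in both libraries, and its share with thalidomide minus that with vehicle was −9.07 ± 0.62 percentage points. The R-spondin genes RSPO2 and RSPO3 were lower with separate intervals as deposited: RSPO2 had 6.43 and 4.99 FPKM (−0.31 ± 0.06) and RSPO3 had 6.26 and 4.84 FPKM (−0.31 ± 0.08). After either rescaling the intervals of RSPO3 overlapped, and those of RSPO2 did so after rescaling without mitochondrial genes and short loci. RSPO1 was higher, with 2.12 and 2.92 FPKM (0.33 ± 0.11).

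LEF-1 is a DNA-binding partner of β-catenin and is itself a target gene. LEF-1 (ENSGALG00000010529; chr4:37323508-37377729) had 22.04 FPKM with vehicle (limits 21.1 to 23.04) and 18.3 with thalidomide (limits 17.4 to 19.2), from about 1970 and 1758 fragments. Its log2 ratio was −0.25 ± 0.05. The intervals were separate as deposited and overlapped under both rescalings, where the ratio was −0.11 and −0.076.

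The other genes of its family had ratios of similar size. TCF7L1 had 44.1 and 38.2 FPKM (−0.20 ± 0.05), TCF7L2 had 16.1 and 14.0 FPKM (−0.20 ± 0.06), both with separate intervals as deposited and overlapping ones after either rescaling, and TCF7, listed under the older symbol TCF1, had 4.73 and 4.17 FPKM (−0.15 ± 0.12), with overlapping intervals. LEF-1 made up 25.3% ± 0.54 of the family's summed FPKM with vehicle and 24.6% ± 0.57 with thalidomide, a difference smaller than its error of 0.79 percentage points. TCF7L1, mostly a repressor in the absence of β-catenin, was the most abundant of the family at 50.7% ± 0.73 and 51.1% ± 0.77.

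SP5 encodes a zinc finger transcription factor that β-catenin induces in many embryonic tissues. SP5 (ENSGALG00000027511; chr7:17752450-17753992) had 0.907 FPKM with vehicle (limits 0.501 to 1.31) and 0.967 with thalidomide (limits 0.545 to 1.39), from about 20 and 21 fragments. Its log2 ratio was 0.04 ± 0.22. The limits lay 44.7% and 43.6% from the value, so only a large difference could have been seen.

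**Figure D2:**
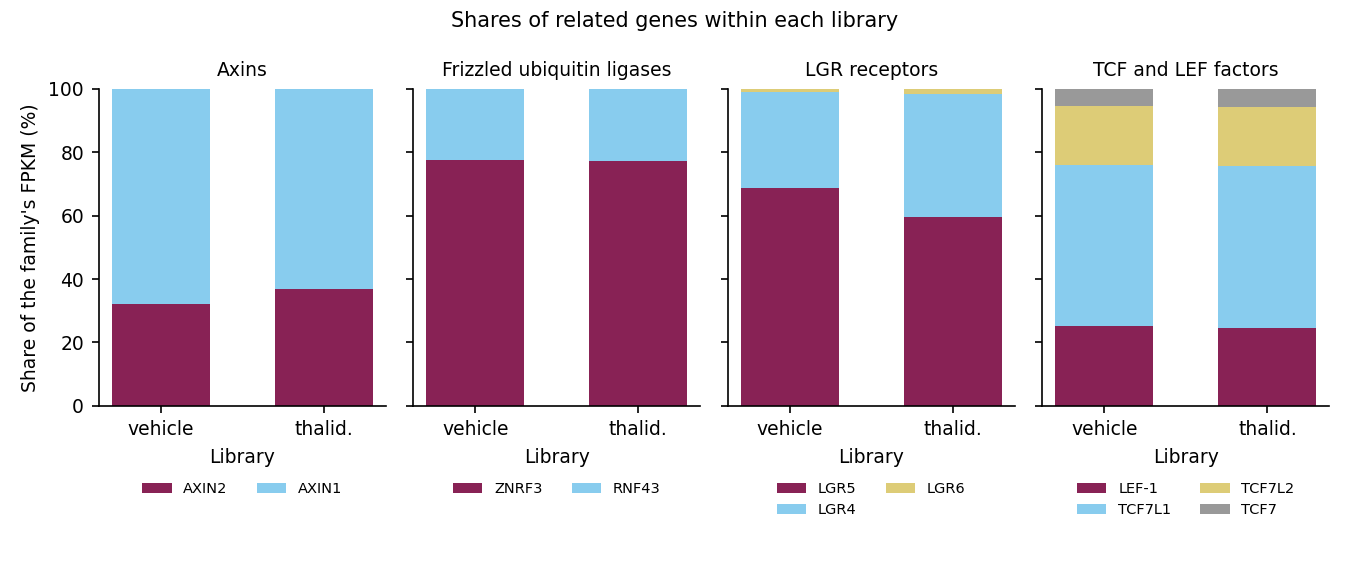
Share of the summed FPKM (%) that each gene takes within its family in the vehicle and the thalidomide library, 1 library each, for axins, the ubiquitin ligases of Frizzled, LGR receptors and TCF and LEF factors. LGR5 takes 68.6% and 59.5% of its family and AXIN2 32.1% and 36.8%, while the shares of ZNRF3 (77.6% and 77.4%) and LEF-1 (25.3% and 24.6%) are nearly level.

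By size, 1 of the 7 genes past the filter was at least 25% higher on the FPKM + 1 scale (ZNRF3), beside 6.14% of all genes, and 1 was at least 20% lower (LGR5), the same fold in the other direction, beside 8.71% of all genes. None of the 7 reached 1.5-fold in either direction on that scale, beside 0.954% of all genes higher and 0.972% lower. NKD1 (24.5% higher) and RNF43 (23.7% higher) fell just short of 25%, and with 0.1 or nothing added to FPKM 3 genes were past it, beside 9.17% and 9.55% of all genes. After the rescaling to the mean total and the one without mitochondrial genes and short loci, 4 were at least 25% higher, beside 14.8% and 17.9% of all genes, and 0 at least 20% lower, beside 2.58% and 2.05%.

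Levels and ratios went together over the transcriptome. Genes with a mean of 5 to 10 FPKM had a median log2 ratio of 0.00, those of 10 to 30 FPKM had −0.05, and those at 100 FPKM or more had −0.24. LGR5 and LEF-1 were also the most abundant of the 8. Among the 3214 genes at 10 to 30 FPKM, where LGR5, LEF-1 and NKD1 lie, the middle 90% of ratios ran from −0.38 to 0.31; LGR5 lay below this range, NKD1 just above it and LEF-1 inside it. Among the 2331 genes at 5 to 10 FPKM, where ZNRF3 and AXIN2 lie, it ran from −0.33 to 0.40, with ZNRF3 above and AXIN2 inside.

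**Figure D3:**
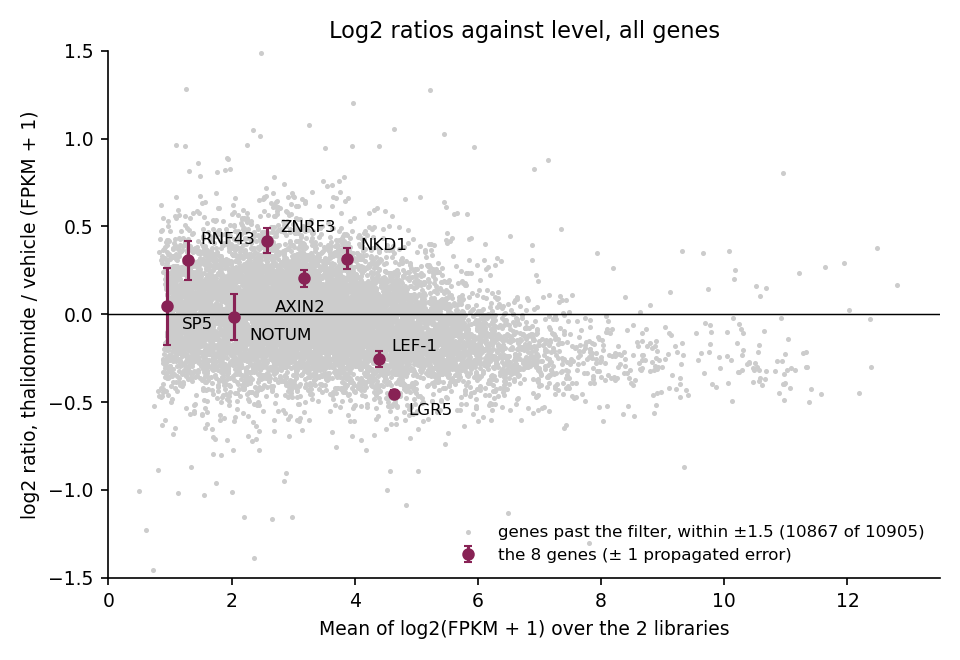
Log2 ratio of thalidomide over vehicle (FPKM + 1) against the mean log2(FPKM + 1) of both libraries, for genes past the filter (grey) and the 8 genes (dark, ± 1 propagated error). With FPKM as deposited, the grey cloud sinks below 0 at high levels; LGR5 (−0.45) lies at its lower edge and ZNRF3 (0.42) at its upper edge.

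Ratios between the genes within a library do not depend on how the libraries are scaled against each other. The FPKM of ZNRF3 was 0.149 times that of LGR5 with vehicle and 0.293 times with thalidomide, a difference of 0.98 ± 0.09 on the log2 scale, with nothing added to FPKM. For AXIN2 over LGR5 the ratios were 0.265 and 0.431 (0.70 ± 0.06), and for NKD1 over LGR5 they were 0.436 and 0.765 (0.81 ± 0.07). Relative to LGR5, each of these inhibitor genes was thus more abundant in the thalidomide library. The ratio of LEF-1 to LGR5 was 0.787 and 0.907 (0.20 ± 0.05), so LGR5 was lower by more than LEF-1. Of the 28 pairs among the 8 genes, 13 differed by more than 2 errors. The share over all gene pairs was not computed, so this count has no background. Of single genes past the filter, 42.4% had separate intervals between the libraries. That is a stricter rule than 2 errors, so this share cannot be set against the count of pairs. The 13 pairs include all 8 ratios of AXIN2, NKD1, ZNRF3 or RNF43 to LGR5 or LEF-1, which lay between 0.50 and 0.99. They include only 1 of the 6 pairs among AXIN2, NKD1, ZNRF3 and RNF43, whose differences lay between 0.02 and 0.29. These groupings were made after the values were seen, from the genes with the highest and the lowest ratios of the 8. The direction of the 8 ratios was thus fixed in advance, and their contrast with the 6 pairs is no further result. The error leaves out variation between tissue samples.

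The rest of the pathway was taken from a list of 111 symbols, of which 93 genes were matched and 80 passed the filter. Of these 80, 32 (40.0%) were lower with separate intervals and 9 (11.3%) were higher, beside the 26.9% and 15.5% of all genes given above, and the median log2 ratio was −0.13 against −0.05 for all genes. Rescaled to the mean FPKM total, 15 were lower and 24 higher, with a median of 0.007. Of all genes 10.4% were then lower and 32.1% higher, with a median of 0.08. Rescaling moved the median of all genes by 0.13, so only the position of the list relative to all genes can be read from these values. That position was not matched for level. Of all genes with a mean of 1 to 5 FPKM, 10.4% were lower with separate intervals as deposited, and of those at 100 or more, 84.4%. What part level has in the values of the list was not tested.

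Upstream of the feedback genes, ligands and the inhibitors listed as secreted had low ratios. All 10 ligand genes past the filter had ratios below 0, as deposited (median −0.24), centred and under both rescalings (medians −0.14 and −0.12), beside 59.0% of all genes below 0 as deposited and 34.6% and 28.8% after the rescalings. Separate intervals were seen for 4 of them as deposited, 2 when rescaled to the mean total and 1 under the other rescaling. Of all genes, 26.9%, 10.4% and 7.84% were lower with separate intervals in these settings. WNT2B (1.29 and 0.972 FPKM) and WNT3 passed the filter through the vehicle library alone, so as deposited their sign was fixed by the filter. The rescaled counts of ligands kept the genes that passed as deposited, so both were kept through the vehicle library there too. The shares of all genes were filtered anew after rescaling. Ligands under the filter lay on both sides of 0, such as WNT7A (0.14 ± 0.16) and WNT7B (−0.39 ± 0.11). WNT6, an ectodermal ligand, was lowest at 23.2 and 16.8 FPKM (−0.44 ± 0.07), WNT5A, which mostly signals without β-catenin, had 55.2 and 48.4 FPKM (−0.18 ± 0.03, with intervals that overlapped after either rescaling), and WNT3 was highest at 1.10 and 0.888 FPKM (−0.15 ± 0.15). WNT3A, the chick ridge ligand that acts through β-catenin, was under the filter at 0.649 and 0.515 FPKM with overlapping intervals. WLS, which carries Wnt ligands to the cell surface, had 197 and 192 FPKM (−0.04 ± 0.01), a ratio that lay above 0 when centred or rescaled.

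The inhibitors listed as secreted also include the membrane-bound KREMEN1 and APCDD1. Among the 11 of them past the filter, 10 had ratios below 0 (median −0.27) and 6 of these had separate intervals, while none was higher with separate intervals. Of all genes, 59.0% were below 0, and 26.9% were lower and 15.5% higher with separate intervals. After either rescaling 6 of the 11 were below 0, 5 of them with separate intervals, and 1 was higher with separate intervals. Of all genes, 34.6% and 28.8% were then below 0, with 10.4% and 7.84% lower by separate intervals. The inhibitors ran from FRZB, which binds Wnt ligands, at 86.1 and 59.9 FPKM (−0.51 ± 0.03) to SFRP4 at 5.66 and 6.27 FPKM (0.12 ± 0.08). APCDD1, a membrane-bound inhibitor and known target gene, had 5.44 and 5.07 FPKM (−0.09 ± 0.08), with overlapping intervals.

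Receptor and relay genes went both ways as deposited. Over all genes, 26.9% were lower and 15.5% higher with separate intervals as deposited (median −0.05). Rescaled to the mean total, 10.4% of all genes were lower and 32.1% higher (median 0.08). Under the other rescaling 7.84% were lower and 37.2% higher (median 0.11). Of 12 receptor genes, 4 were lower with separate intervals (2 after either rescaling), FZD7 most at 69.9 and 54.8 FPKM (−0.35 ± 0.03), and 1 was higher (4 after either rescaling), FZD6 at 5.63 and 6.68 FPKM (0.21 ± 0.04). Of 15 relay and destruction complex genes, 3 were lower and 4 higher, with a median of 0.00 as deposited. Rescaled to the mean total, 2 were lower and 9 higher (median 0.15), and under the other rescaling 1 was lower and 10 higher (median 0.18). DVL1, which encodes a Dishevelled relay protein, had 4.01 and 7.08 FPKM (0.69 ± 0.05). Of the 80 other pathway genes past the filter, DVL1 alone reached 1.5-fold on the FPKM + 1 scale as deposited. Of all genes, 0.954% reached it higher and 0.972% lower. DACT2, another Dishevelled-binding regulator, was the lowest of this role, with 47.1 and 37.0 FPKM (−0.34 ± 0.03).

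In the nucleus, CTNNB1, which encodes β-catenin, had 278 and 246 FPKM (−0.17 ± 0.01), with separate intervals as deposited and overlapping ones after either rescaling. Of 13 nuclear effectors 6 were lower with separate intervals and 2 were higher, beside 26.9% and 15.5% of all genes. After either rescaling 0 were lower and 4 higher. Of all genes 10.4% and 7.84% were then lower and 32.1% and 37.2% higher. The effectors ran from PYGO2, a coactivator, at 44.1 and 35.4 FPKM (−0.31 ± 0.07) to BCL9, which links PYGO proteins to β-catenin, at 13.0 and 14.4 FPKM (0.14 ± 0.03).

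Other genes reported as β-catenin targets in various tissues had a median of −0.13 over 13 past the filter, 6 lower and 1 higher with separate intervals. Over all genes the median was −0.05, with 26.9% lower and 15.5% higher. Rescaled to the mean total, the median of the 13 was 0.02 with 3 lower and 3 higher. That of all genes was then 0.08, with 10.4% lower and 32.1% higher. Under the other rescaling the median of the 13 was 0.057, with 2 lower and 3 higher. For all genes it was 0.11, with 7.84% lower and 37.2% higher. BAMBI, a decoy receptor for TGF-β family signals, was lowest at 9.52 and 7.46 FPKM (−0.31 ± 0.05). The cell cycle gene CCND1 had 19.4 and 17.0 FPKM (−0.18 ± 0.06), with separate intervals as deposited and overlapping ones after either rescaling. T, the mesoderm factor brachyury, was highest at 4.43 and 5.51 FPKM (0.26 ± 0.07). NKD2, the relative of NKD1, was not matched.

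**Figure D4:**
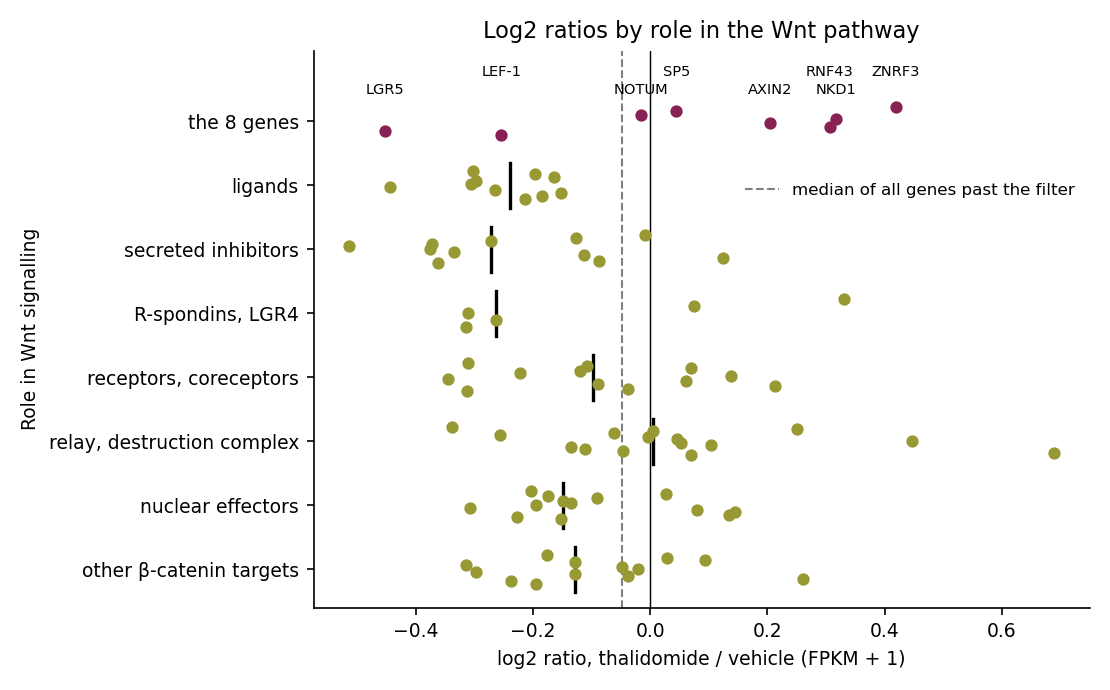
Log2 ratio of thalidomide over vehicle (FPKM + 1) of the 8 genes (top row, named) and of other Wnt pathway genes past the filter by role, with a bar at each role's median and a dashed line at the median of all genes (−0.05). With FPKM as deposited, ligands all lie below 0, WNT2B and WNT3 having passed the filter through the vehicle library alone. Of the inhibitors listed as secreted, 10 of 11 lie below 0, beside 59.0% of all genes. After either rescaling 6 of 11 were below 0, beside 34.6% and 28.8% of all genes. Of the 8 genes, SP5, AXIN2, RNF43, NKD1 and ZNRF3 lie to the right of 0 and LGR5, LEF-1 and NOTUM to the left.

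**Figure D5:**
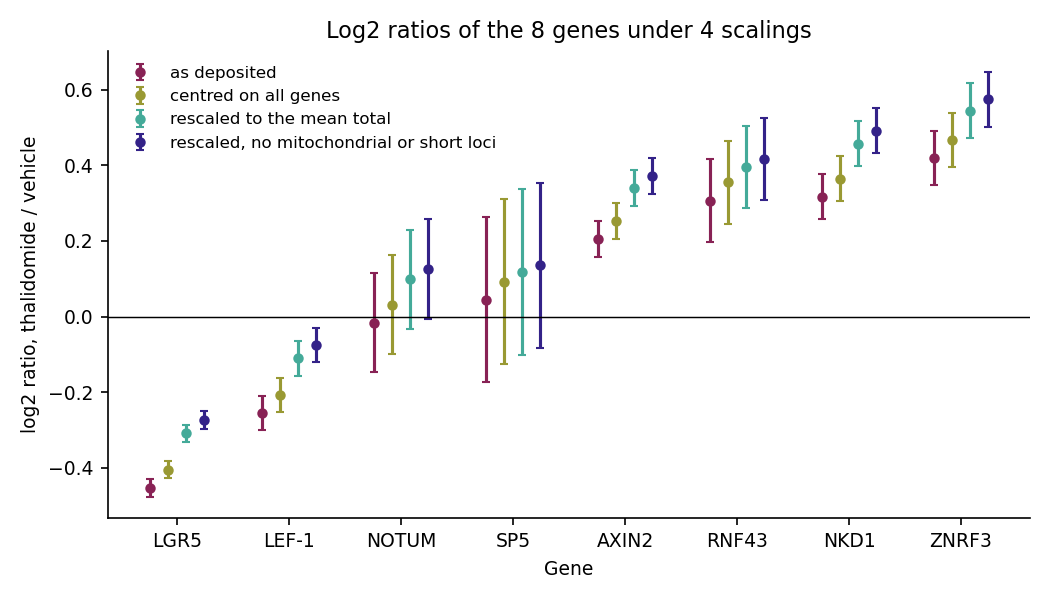
Log2 ratio of thalidomide over vehicle of the 8 genes (± 1 propagated error) with FPKM as deposited, centred on the median of all genes, and under both rescalings. LGR5 stays below 0 (−0.45 to −0.27), while LEF-1 approaches 0 (−0.25 to −0.076). ZNRF3 (0.42 to 0.57) could only stay above 0, since centring and both rescalings raised every ratio.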

How the data were processed

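Per the file headers, each deposited table holds an FPKM for every annotated gene and the limits of its confidence interval; the confidence level is not stated there. Assembly galGal4, Cufflinks 2.2.1, Cuffdiff, STAR 2.4.2a and bcl2fastq are named in the submitters' processing notes, without their roles; the annotation release is not given in the sources used here. FPKM values are not counts, and 1 library per treatment allows no test.

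Rows of 1 symbol were summed with errors added in quadrature (134 symbols). The upper limit was taken to lie 2 SD above the FPKM, which gave each gene's error and its inferred fragment number. Genes that reached 1 FPKM in either library were kept, 1 was added before the log2 ratio, and genes were counted at separate deposited intervals, 25% higher or 20% lower (the same fold) and 1.5-fold. Starts are written from 0 in the files and are printed from 1, as read from adjoining mitochondrial genes. Of the pathway symbols, 4 matched through older symbols in the RefSeq gene table of GRCg7b, from which no coordinates were taken.

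The genes and lists were chosen with earlier results of these data known. Of the pathway genes, the highest and lowest of each role are named, plus 10 fixed ones; of each cell type list, the 2 most abundant. With 2 libraries each gene has 1 ratio, so no genes of like pattern are named. The ratio and its error were tested on simulated libraries drawn with counting error only, from which their limits were also set. That test does not cover read assignment or variation between tissue samples. Python 3.11.15 was used with pandas and NumPy. Alternatives were other pseudocounts, filters, scalings and a rule of 2 propagated errors; ratios and shares within a library were added after the data were seen.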

Additional observations from a re-analysis of the deposited data

How the results depend on the processing

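Of 115 alternative values, 90 moved by less than about 2 propagated errors or, for counts, stayed within 1.5 times. The 90 include ratios of single genes under other filters, which equal the main value by construction. LGR5 and LEF-1 kept their sign under every alternative. Pseudocounts and filters cannot change a sign, and centring and both rescalings raised every ratio. The sign of AXIN2, NKD1, ZNRF3, RNF43 and SP5, above 0 as deposited, was thus fixed in advance. With both libraries rescaled to the mean FPKM total, the log2 ratio was 0.34 for AXIN2, 0.46 for NKD1, −0.31 for LGR5 and −0.11 for LEF-1. Rescaled without mitochondrial genes and loci under 300 bases, it was 0.37 for AXIN2, 0.49 for NKD1, 0.57 for ZNRF3, −0.27 for LGR5 and −0.076 for LEF-1; centred on all genes it was −0.41 for LGR5. Under either rescaling 1 of the 8 genes was lower with separate intervals (beside 10.4% and 7.84% of all genes), 0 were at least 20% lower (2.58% and 2.05%) and 4 were at least 25% higher (14.8% and 17.9%). With 0.1 added, with nothing added, or centred, 3 were at least 25% higher (9.17%, 9.55% and 8.67%). Under the first and the second rescaling, 15 and 11 other pathway genes were lower and 24 and 25 higher, beside 10.4% and 7.84% of all genes lower and 32.1% and 37.2% higher, and their median turned from −0.13 to 0.0070 and 0.041. These shifts follow from the factors applied, which moved the median of all genes by 0.13 and 0.16. The interval counts use neither pseudocount nor centring, and NOTUM, RNF43 and SP5 have no value with a filter of 5 FPKM. No paired analysis was possible because each treatment has 1 library. Depth limits SP5, NOTUM and RNF43, at 20 to 146 inferred fragments.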

Other observations

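Some pathway genes outside the naming rule were picked once their values were seen, so they are given as a description. BTRC, the F-box protein that recognises phosphorylated β-catenin for degradation, had 4.56 FPKM with vehicle and 6.58 with thalidomide (log2 ratio 0.45 ± 0.08), and CSNK1D, a casein kinase of the relay, had 22.6 and 27.1 FPKM (0.25 ± 0.02). Their intervals were separate, as for ZNRF3, NKD1 and AXIN2. Over all genes, 15.5% were higher and 26.9% lower with separate intervals as deposited. DACT1, which like DACT2 binds Dishevelled, had 55.0 and 56.7 FPKM (0.05 ± 0.03), with overlapping intervals as deposited, against the lower ratio of DACT2 given above. Among the most abundant Frizzled genes, FZD2 had 150 and 121 FPKM (−0.31 ± 0.03) and FZD1 had 56.3 and 48.1 FPKM (−0.22 ± 0.03), both with separate intervals as deposited but FZD1 with overlapping ones after either rescaling, while the coreceptor genes LRP5 (7.90 and 8.80 FPKM) and LRP6 (3.05 and 3.25 FPKM) had overlapping intervals as deposited. FBXW11 had 16.2 and 16.3 FPKM, with overlapping intervals as deposited. After either rescaling FBXW11, DACT1, LRP5 and LRP6 were higher with separate intervals, beside 32.1% and 37.2% of all genes. Both rescalings raised every ratio. CSNK1E had overlapping intervals when rescaled without mitochondrial genes and short loci.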
